A study of Mus musculus with 4 samples.

Results

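Mitosis and cytokinesis genes encode the proteins that take a cell from the end of DNA replication through chromosome segregation to the separation of its daughters. The set holds 50 genes chosen by symbol, among 18193 genes that the annotation of the arrays names, and every probe set annotated to 1 of those symbols was taken. The 50 genes were read by 115 probe sets, 88 on the Affymetrix design MOE430A and 27 on MOE430B. A probe set is a group of short array probes that together report 1 transcript region as 1 signal. Ccnb1, a B-type cyclin, was not analysed here.

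The RNA came from lungs of mouse embryos at E18.5, shortly before birth, of 2 genotypes on a BALB/c background as the labels give it. Wild type embryos were compared with embryos null for both Myf5 and Myod1, the myogenic regulators that skeletal muscle needs to form. The series asks what skeletal muscle contributes to lung development. Each genotype was hybridised once to each design, 4 arrays in all, with biotin-labelled cRNA of 6 µg total RNA. The labels give neither the number of embryos behind an RNA sample nor their litter, and do not say whether both designs received the same RNA. With 1 array a group there is no test between genotypes, no p-value can be given, and the number of arrays limits the precision of every ratio. Arrays had been scaled singly, so each ratio compares the pair of arrays of 1 design.

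Entry into mitosis is driven by the kinase Cdk1 bound to cyclins A and B, and Polo and Aurora kinases then build the spindle. Kinetochores, protein plates on the centromeres, tie chromosomes to the spindle while the checkpoint holds back the anaphase-promoting complex, a ubiquitin ligase whose activity frees separase to part the sister chromatids. A contractile ring, placed by the central spindle, then divides the cell. Messages of these genes peak together in late cell cycle and are low in resting cells, so in lung they are used as markers of dividing cells.

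The targeted genes gave a mixed check of the labels. Myf5 had signals of 111 under the wild type label and 8.94 under the double knockout label, each under the level of 283.8 used as the lower limit of measurement on MOE430A. Myod1 on MOE430A went against the labels, with 85.0 in the wild type and 1081 in the double knockout array, and its MOE430B probe set read 337 and 607. Whether they fall inside the deleted sequence is not known here, and a probe set outside it checks nothing. Every direction below therefore rests on the labels, and arrays are called knockout-labelled and wild-type-labelled. Lung markers were present in both arrays. All 13 lung epithelial genes with a MOE430A probe set read above that limit, and their summed signal was 185116 in the wild-type-labelled and 246405 in the knockout-labelled array. The 3′ to 5′ signal ratio of the Gapdh and Actb controls, which rises when RNA is degraded, lay between 0.746 and 1.06 on the 4 arrays. Controls for 18S ribosomal RNA read a median 3.91-fold higher in the knockout-labelled array on MOE430A and 3.13-fold higher on MOE430B. The part of that difference in the results below was not tested.

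On MOE430A, mitosis and cytokinesis genes read lower in the knockout-labelled array as a group. A probe set was measured when its brighter signal was at or above the middle of all signals of its design, and a gene with several was represented by the one with the highest mean log2 signal, called its brightest. Of 48 members with a probe set, 44 were measured, and 37 of them were lower, against 48.7% of all 7658 measured genes. At least 1.5-fold lower (0.585 on the log2 scale) were 14 members, or 31.8%, against 6.32% of all genes. None was at least 1.5-fold higher, against 6.23% of all genes. The median log2 ratio of double knockout over wild type was -0.46 for the members and 0.01 for all genes. In whole tissue, fewer dividing cells and less message per dividing cell cannot be told apart.

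The size of the difference was moderate. Tpx2 and Bub1 were at least 2-fold lower, 4.55% of the members against 1.78% of all genes, and the member ratios spanned -1.15 to 0.54. Of the members at least 1.5-fold lower, Bub1, Spc25 and Kif20a were measured only through their wild-type-labelled signal. Ttk, the highest, was measured only through its knockout-labelled signal. Other probe sets quoted below were also measured through a single signal. Through the wild-type-labelled signal these were Ect2, the lowest of Kif2c, and the probe sets that do not represent Prc1, Racgap1, Tpx2 and Kif11. On MOE430B, Top2a and the higher ratio of Cenpa were measured only through the knockout-labelled signal. With no limit on the brighter signal, 15 of 47 members were at least 1.5-fold lower, against 7.33% of all genes. With the lower limit of measurement set at the median signal, 1 of 44 members was at least 2-fold lower, against 0.849%. The member ratios had quartiles of -0.67 and -0.19, where all genes had -0.21 and 0.23. Below the lower quartile of all genes lay 31 of the 44 members. Among the 30 members whose brighter signal reached the 75th percentile of the design, 25 were lower. Several of these, such as Plk1, Mad2l1 and Tpx2, reached it only through their wild-type-labelled signal, which favours lower ratios. Kif4 and Kif23, which were higher, reached it only through their knockout-labelled signal. When only probe sets whose brighter signal reached that percentile were kept and rescaled, 26 of 30 members were lower, against 49.6% of all genes.

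MOE430B, which holds mainly less well characterised transcripts, did not show the same picture. Of 18 members with a probe set there, 12 were measured, 6 lower and 6 higher, against 54.0% and 46.0% of all 6728 measured genes. The median was -0.003 for the members and -0.04 for all genes. Only Smc2 was at least 1.5-fold lower, against 14.0% of all genes, and Anln and Top2a were at least 1.5-fold higher, against 14.3%. These shares are near or below the background of that design, whose gene ratios had wider quartiles, -0.35 and 0.31.

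**Figure D1:**
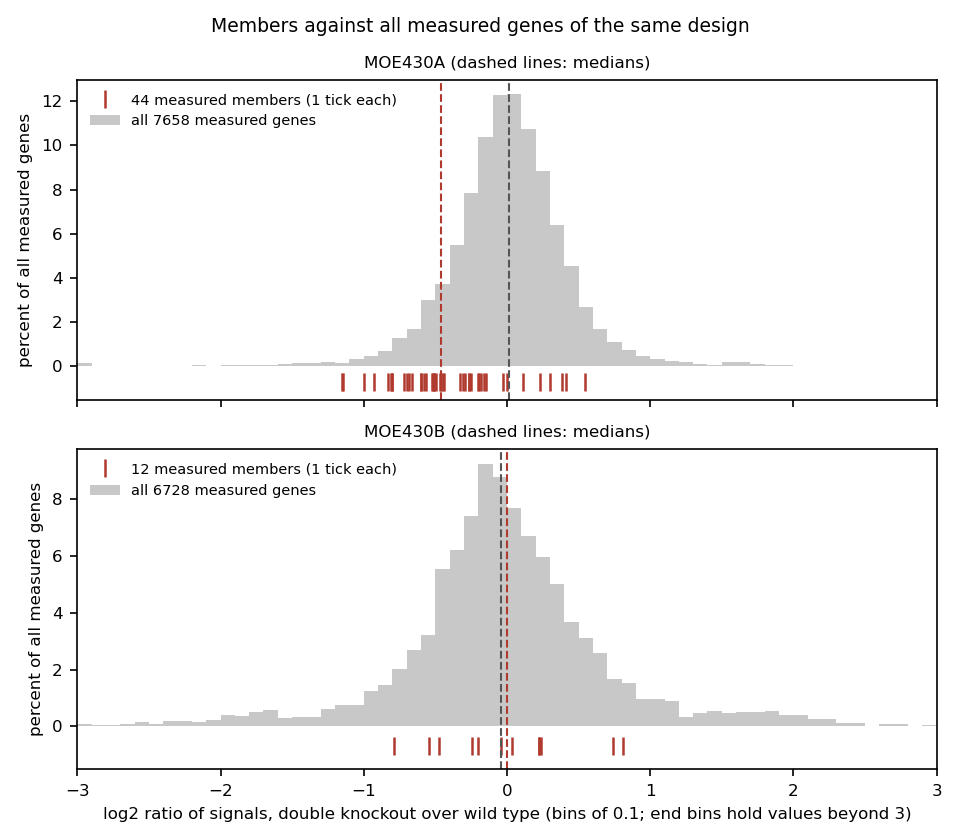
Percent of all measured genes in bins of the log2 ratio of double knockout over wild type (grey bars), with 1 red tick for each measured member and dashed lines at the medians, on MOE430A (top) and MOE430B (bottom). On MOE430A the member median of -0.46 lies left of the median of all genes at 0.01, and on MOE430B the medians of -0.003 and -0.04 nearly coincide.

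With no replicate, the scatter between probe sets has to stand in for an error. It does not measure the variation between embryos of a genotype, which this series cannot give. From 100 probe sets present on MOE430A and MOE430B alike, none of them of a member, the SD of a single log2 ratio was estimated at 0.245. Passing probe sets of the same member differed with an SD of 0.38 on MOE430A, over 17 members, close to 0.37 over the 2488 genes with several. On MOE430B this SD was 0.714 over 1836 genes with several and 0.245 over 4 members, so single ratios there are less certain. By the SD of 0.38 between probe sets, the 1.5-fold limit of 0.585 is thus less than 2 SDs from 0. Prc1 (-0.60) and Ccnb2 (-0.60) lay just inside that limit, and Incenp (-0.58) and Smc2 (-0.57) just outside it. Of the 17 members with several passing probe sets on MOE430A, 13 were lower by all of them, none was higher by all, and the 4 that pointed both ways were Foxm1, Bub3, Incenp and Pttg1. Every passing probe set was lower for 35 members, these 13 among them, and the others of the 35 had a single passing probe set. At least 1.5-fold lower by every passing probe set were 12, of which only Prc1 and Tpx2 had several. Shares over all genes were not computed for these counts.

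**Figure D2:**
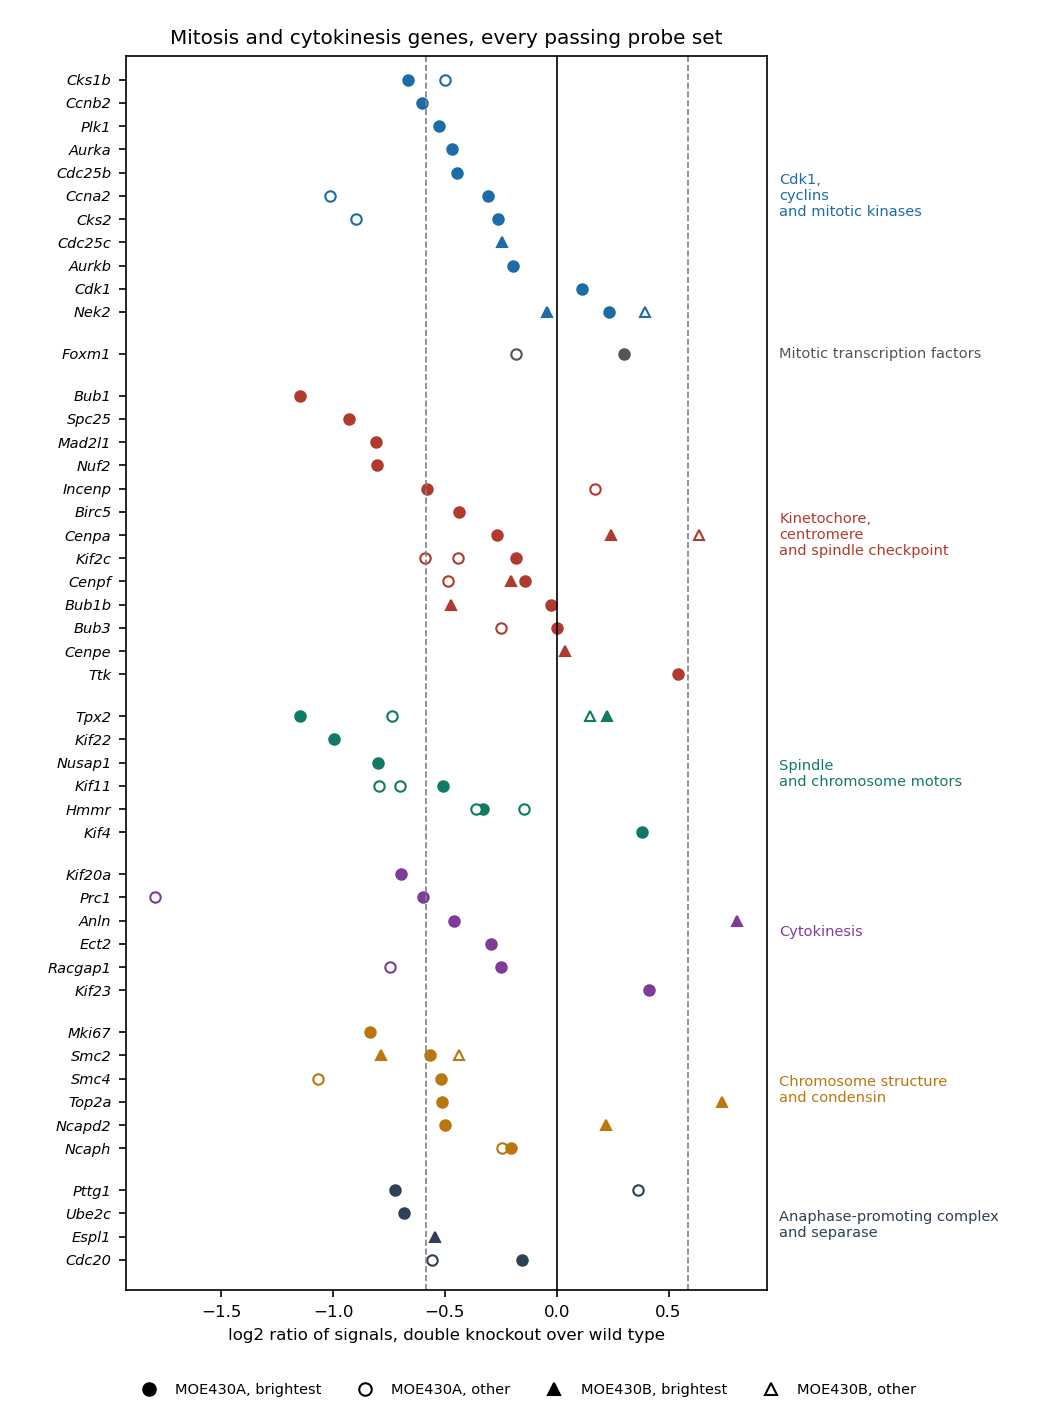
Log2 ratio of double knockout over wild type for every passing probe set of each member, grouped by role (circles MOE430A, triangles MOE430B, filled for the brightest probe set of a design, open for the others), with dashed lines at 1.5-fold. Circles lie mostly left of 0, and the MOE430B triangles of Anln, Top2a, Cenpa, Tpx2 and Ncapd2 lie right of 0 while their circles lie left of it.

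Many promoters of this set carry CCAAT boxes, bound by the factor NF-Y, and a cell cycle homology region (CHR), bound by MuvB complexes. Among these complexes, DREAM holds the genes silent in resting cells. Promoters of members with the lowest and the highest ratios on MOE430A are shown to set that shared sequence beside the values. They are the 250 bases upstream of the RefSeq start (build GRCm38.p6), read 5′ to 3′ on the strand of the gene, with capitals marking TTTGAA (CHR) and CCAAT on either strand (TTCAAA and ATTGG when reversed). Members were taken among those with high signal and an entry in the promoter table. The lowest were Kif22 (chr7:127042421-127042670, minus strand), Mki67 (chr7:135716380-135716629, minus strand), Mad2l1 (chr6:66534971-66535220, plus strand) and Nusap1 (chr2:119618048-119618297, plus strand). The highest were Kif4 (chrX:100625815-100626064, plus strand) and Kif23 (chr9:61946800-61947049, minus strand).
Kif22: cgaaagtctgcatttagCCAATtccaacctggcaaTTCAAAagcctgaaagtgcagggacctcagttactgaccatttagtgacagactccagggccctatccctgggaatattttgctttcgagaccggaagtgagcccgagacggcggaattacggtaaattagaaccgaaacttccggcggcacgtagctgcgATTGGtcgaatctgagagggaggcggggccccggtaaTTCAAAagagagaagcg
Mki67: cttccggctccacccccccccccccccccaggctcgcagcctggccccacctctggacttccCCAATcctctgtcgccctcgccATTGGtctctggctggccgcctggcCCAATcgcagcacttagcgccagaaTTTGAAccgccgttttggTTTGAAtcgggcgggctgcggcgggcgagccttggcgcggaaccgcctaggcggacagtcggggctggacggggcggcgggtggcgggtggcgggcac
Mad2l1: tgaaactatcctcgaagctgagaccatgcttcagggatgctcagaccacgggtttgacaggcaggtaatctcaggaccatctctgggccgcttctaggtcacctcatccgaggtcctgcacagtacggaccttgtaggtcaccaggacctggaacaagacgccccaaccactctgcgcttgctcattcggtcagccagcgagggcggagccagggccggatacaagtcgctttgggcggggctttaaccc
Nusap1: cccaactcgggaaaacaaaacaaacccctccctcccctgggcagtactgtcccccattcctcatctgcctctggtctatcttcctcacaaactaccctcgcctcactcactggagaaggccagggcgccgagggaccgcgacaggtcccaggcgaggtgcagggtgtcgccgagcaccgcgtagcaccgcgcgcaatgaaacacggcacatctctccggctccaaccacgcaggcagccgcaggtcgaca
Kif4: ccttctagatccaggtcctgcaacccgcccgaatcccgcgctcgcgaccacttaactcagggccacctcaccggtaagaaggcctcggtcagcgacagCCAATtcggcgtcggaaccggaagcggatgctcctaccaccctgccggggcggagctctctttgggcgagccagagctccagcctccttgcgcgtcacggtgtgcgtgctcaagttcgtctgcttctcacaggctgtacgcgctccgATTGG
Kif23: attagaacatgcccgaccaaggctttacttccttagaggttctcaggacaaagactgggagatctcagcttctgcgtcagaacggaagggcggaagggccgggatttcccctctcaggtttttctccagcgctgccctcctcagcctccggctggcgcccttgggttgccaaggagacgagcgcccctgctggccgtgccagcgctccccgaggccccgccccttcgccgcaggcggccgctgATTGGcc

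Kif22 and Mki67 each held 2 matches to TTTGAA and at least 2 to CCAAT. Kif4 held 2 matches to CCAAT and Kif23 held 1, and neither held TTTGAA in this window, while Mad2l1 and Nusap1 held no match to either. The RefSeq table matched 42 of the 50 members with 45 promoters, 3 members having 2 each, which may share sequence. No entry was found for Aurkb, Ccna2, Cdc25c, Foxm1, Incenp, Kif20a, Smc4 and Tpx2. TTTGAA was present in 18 of the 45 promoters (40.0%), against 16.0% of all 32851 promoters of the table. CCAAT was present in 35 (77.8%), against 33.8%, and both in 17 (37.8%), against 5.55%. Matches to CCAAT sat close to the start, 50 of 76 within 100 bases. In the member promoters, no match to one motif overlapped a match to the other.

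Members with and without the motifs overlapped in their ratios. On MOE430A the 15 measured members with TTTGAA had a median log2 ratio of -0.51, with 13 lower and 6 at least 1.5-fold lower. The 22 measured members of the table without it had a median of -0.38, with 18 lower and 6 at least 1.5-fold lower. With CCAAT the median was -0.44 over 29 members and without it -0.59 over 8.

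**Figure D3:**
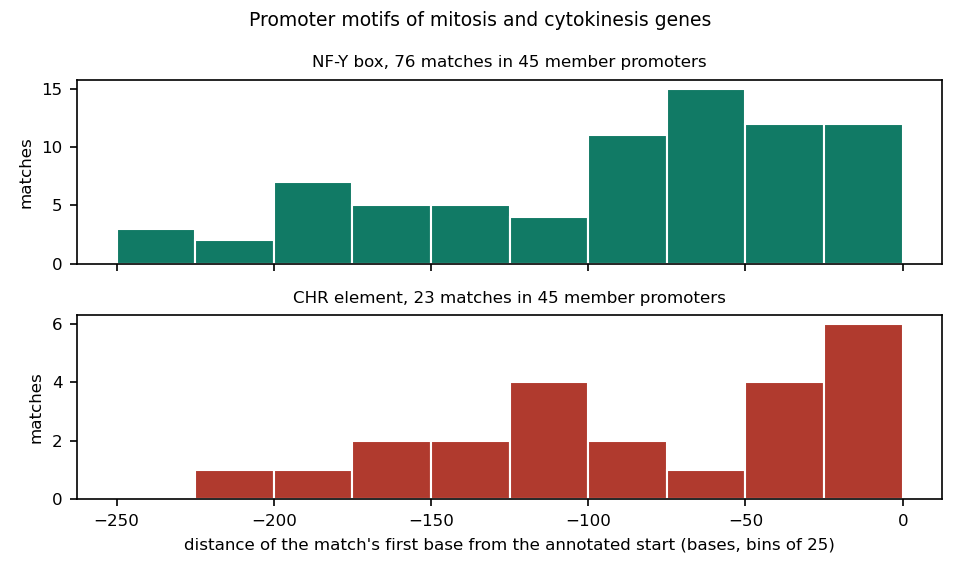
Number of matches to the CCAAT (NF-Y) box (top, 76 matches) and to the TTTGAA element (bottom, 23 matches) on either strand of 45 member promoters, by distance in bases from the annotated start, in bins of 25. Of the CCAAT matches 50 and of the TTTGAA matches 13 begin within 100 bases of the start.

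The engine of mitotic entry read lower on MOE430A in most of its parts but not in its kinase. Of 12 genes in this group, 10 were measured, 8 lower and 2 higher, with a median of -0.38. For this and every group and list below, the shares over all genes of MOE430A were 48.7% lower and 6.32% at least 1.5-fold lower. Those of MOE430B were 54.0% and 14.0%. Ccnb2, a B-type cyclin that activates Cdk1, read 3570 in the wild-type-labelled and 2352 in the knockout-labelled array, 1.52-fold lower. Cks1b, a small subunit of cyclin-dependent kinases, read 10283 and 6486, 1.59-fold lower, and its other probe set read 4930 and 3489. These were the 2 genes of the group past 1.5-fold. Cdk1 itself read 5309 and 5746, with a log2 ratio of 0.11.

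Within this group, probe sets differed most for Ccna2 and Cks2. Ccna2, the cyclin of S phase and early mitosis, read 4443 and 3589 by the probe set that represents it, a log2 ratio of -0.31. Its other probe set, brighter in the wild-type-labelled array, read 5538 and 2738, 2.02-fold lower. Cks2, the second Cks subunit, read 6340 and 5280 (-0.26) and 4465 and 2394 by its other probe set, 1.86-fold lower. Both genes were lower by each probe set, and past 1.5-fold only by the probe set that does not represent them.

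Of the mitotic kinases, Plk1, Aurka and Aurkb were lower and Nek2 was higher on MOE430A. Plk1, the Polo kinase of mitotic entry and cytokinesis, read 1889 and 1313, a log2 ratio of -0.53. Aurka, the Aurora kinase of centrosomes, read 2019 and 1459 (-0.47). Aurkb, the Aurora kinase of the chromosomal passenger complex, which corrects faulty attachments, read 1800 and 1570 (-0.20). Nek2, which splits centrosomes, went the other way with 924 and 1085 (0.23), and on MOE430B its passing probe sets gave -0.04 and 0.40. Of the phosphatases that switch Cdk1 on, Cdc25b had -0.44, and Cdc25c was not measured on MOE430A and had -0.25 on MOE430B.

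Of the transcription factors of the mitotic programme, Foxm1 was measured by a pair of probe sets that pointed apart. The brighter read 1950 and 2399, a log2 ratio of 0.30, and the other 1600 and 1408, a ratio of -0.18. A further probe set shared with Tex52 and Pebp1 was left out. Mybl2, the MYB factor that joins MuvB late in the cycle, stayed under the limit for measurement, at 666 and 637 by its brighter probe set, and gave no ratio.

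Kinetochore and checkpoint genes were uneven. Of 14 genes, 12 were measured on MOE430A, 10 lower, and 4 were at least 1.5-fold lower. The median was -0.35. Bub1, the checkpoint kinase of kinetochores, shared the lowest ratio by brightest probe set with Tpx2, with 1016 in the wild-type-labelled and 458 in the knockout-labelled array, 2.22-fold lower. Mad2l1, the checkpoint protein that binds Cdc20, read 2831 and 1618, 1.75-fold lower. The other checkpoint genes were not past 1.5-fold in either direction. Bub1b read 1707 and 1678 (-0.03), or -0.47 by a MOE430B probe set with 5673 and 4088. Bub3, which recruits Bub1 and Bub1b, read 6053 and 6065 (0.003) by its brighter and had -0.25 by its other probe set. Ttk, the kinase that starts checkpoint signalling, had the highest ratio of the members on MOE430A, 650 and 947, a log2 ratio of 0.54.

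In the Ndc80 complex, the rod that grips microtubules, the measured members were Nuf2 and Spc25, and both were at least 1.5-fold lower. Nuf2 read 1483 and 849, 1.75-fold lower, and Spc25 read 1137 and 596, 1.91-fold lower. Ndc80 read 681 and 297, with the higher signal under the measurement limit, so no fold is given. Spc24, the remaining subunit, which is no member and was picked after its value was seen, had -0.41 on MOE430B (3831 and 2884).

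Centromere proteins showed smaller ratios. Cenpa, the histone H3 variant that marks centromeres, had -0.27 on MOE430A (2116 and 1758), but 0.24 and 0.64 by its MOE430B probe sets. Cenpf, a large kinetochore protein, had -0.14 and -0.48 on MOE430A and -0.20 on MOE430B. Cenpe, a kinetochore motor, was measured only on MOE430B, at 3489 and 3580 (0.04). Among passenger proteins that work with Aurkb, Birc5 (survivin) read 4171 and 3081 (-0.44). Incenp, their scaffold, read 1997 and 1336 by the brighter probe set (-0.58) but 1186 and 1334 by the other (0.17). Kif2c, a motor that takes microtubules apart at centromeres, was lower by its 3 passing probe sets, from -0.59 to -0.18.

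Genes of the spindle had the lowest median of the groups with at least 5 measured members, -0.66, with 5 of 6 lower and 3 at least 1.5-fold. Tpx2, which activates Aurka and nucleates microtubules, read 2064 and 931 on MOE430A, 2.22-fold lower, and 811 and 486 by its other probe set, 1.67-fold lower. The MOE430B probe sets of Tpx2 did not follow, at 5992 and 7004 (0.23) and 5896 and 6532 (0.15). Kif22, a chromosome-arm motor, read 4402 and 2207, 1.99-fold lower. Its other probe sets stayed under the measurement limit but had the same order, 681 and 334, and 522 and 192. Nusap1, a microtubule bundler, read 3047 and 1749, 1.74-fold lower.

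Kif11, the motor that pushes spindle poles apart, was lower by all 3 probe sets, with 1350 and 948 by the brightest and ratios from -0.79 to -0.51. Hmmr, a spindle pole protein also known as a hyaluronan receptor, was lower by its 3 passing probe sets, from -0.36 to -0.14. Kif4, a chromokinesin that shortens the central spindle, was the exception with 1585 and 2068, a log2 ratio of 0.38.

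In cytokinesis, 5 of 6 genes were lower on MOE430A and 2 at least 1.5-fold, with a median of -0.38. Prc1, which bundles antiparallel microtubules of the central spindle, read 2986 and 1973, 1.51-fold lower. Its other probe set read 1998 and 575, 3.47-fold lower, the largest ratio of any passing member probe set. That probe set passed only through its wild-type-labelled signal. Kif20a, which brings the passenger complex to the midzone, read 1103 and 681, 1.62-fold lower.

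The partners in centralspindlin, the complex that calls the contractile ring into place, pointed apart. Racgap1, its GTPase-activating subunit, read 2804 and 2359 (-0.25), and 1216 and 725 by its other probe set, 1.68-fold lower. Kif23, its kinesin, read 1545 and 2056, a log2 ratio of 0.41, and its remaining probe sets, at 366 and 59.0 and at 201 and 123, stayed under the measurement limit and were in the opposite order. Ect2, which activates RhoA at the ring, read 824 and 671 (-0.30). Anln, a scaffold of the ring, read 1552 and 1130 on MOE430A (-0.46) but 1038 and 1818 on MOE430B, 1.75-fold higher.

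Chromosome structure genes were lower without exception on MOE430A, 6 of 6 with a median of -0.52, though only Mki67 passed 1.5-fold. Mki67, the Ki-67 antigen that coats mitotic chromosomes and marks dividing cells in tissue sections, read 3263 and 1832, 1.78-fold lower. Top2a, which untangles sister chromatids, read 5129 and 3599 (-0.51), while its MOE430B probe set read 669 and 1116, 1.67-fold higher. The condensin subunits, which compact chromosomes, were lower by every MOE430A probe set. Smc2 read 2134 and 1442 (-0.57), and 2153 and 1248 on MOE430B, 1.72-fold lower. Smc4 read 4712 and 3289 (-0.52), and 4830 and 2306 by its other passing probe set, 2.09-fold lower. Ncapd2 had -0.50 on MOE430A and 0.22 on MOE430B, and Ncaph had -0.20 and -0.25.

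The anaphase group was small. Ube2c, the ubiquitin-conjugating enzyme that serves the anaphase-promoting complex, read 6311 and 3930, 1.61-fold lower. Pttg1, the securin that holds separase inactive, read 16750 and 10160, 1.65-fold lower, but its other passing probe set read 2583 and 3319, a log2 ratio of 0.36. Cdc20, the activator of the complex that the checkpoint restrains, read 4471 and 4010 (-0.16), and 4151 and 2820 by its other passing probe set (-0.56). Espl1, separase, was carried by MOE430B alone, at 4702 and 3220 (-0.55).

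**Figure D4:**
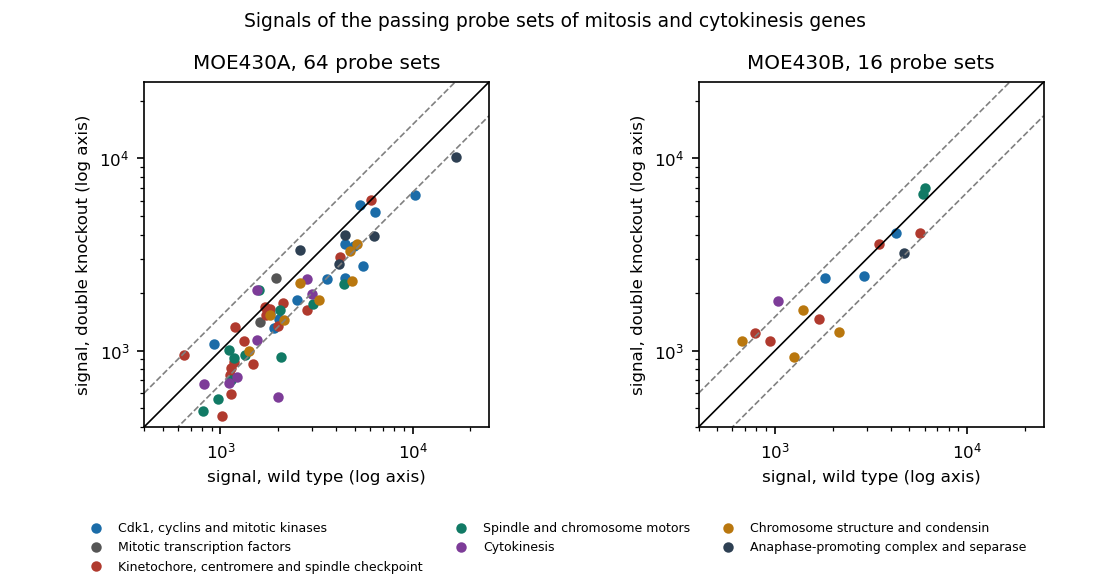
Signal of each passing member probe set in the wild-type-labelled (x axis) and knockout-labelled array (y axis) on log axes, coloured by role, with the line of equal signal and dashed lines at 1.5-fold, for MOE430A (64 probe sets) and MOE430B (16). On MOE430A 55 of 64 probe sets, of 44 members, lie below the line of equal signal, against 50.4% of all passing probe sets of a single gene. On MOE430B 7 of 16 do, where 54.0% of all genes were lower by their brightest probe set.

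Members read by both designs allowed a direct look at their disagreement. Of 9 such members, 3 were lower on both (Bub1b, Cenpf and Smc2), 5 were lower on MOE430A and higher on MOE430B (Cenpa, Tpx2, Anln, Top2a and Ncapd2), and Nek2 was higher on MOE430A and lower on MOE430B. Genes carried by both designs are read there by different probe sets, and the arrays of the designs were not scaled together. For the 100 shared probe sets the mean offset of MOE430B minus MOE430A was -0.22, toward lower ratios on MOE430B. Of the 9 members, Bub1b, Cenpf, Smc2 and Nek2 had lower ratios on MOE430B than on MOE430A. The 5 that were lower on MOE430A and higher on MOE430B had higher ones, as their choice implies. The part of the offset in the disagreement of the designs was not tested.

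The rest of the cell division machinery was taken from lists of genes outside the set. Of 36 measured mitosis genes on MOE430A that are not members, 26 were lower and 5 at least 1.5-fold (13.9%), with a median of -0.34. On MOE430B, where the members were split, 22 of 27 such genes were lower and 9 at least 1.5-fold (33.3%, against 14.0% of all genes), with a median of -0.41. Among those with high signal, Ube2s, a partner of Ube2c, read 14658 and 8733 on MOE430A, 1.68-fold lower. Fbxo5, an inhibitor of the anaphase-promoting complex, read 8799 and 4034 on MOE430B, 2.18-fold lower. Fzr1, the activator of that complex in G1, went the other way with 0.43 on MOE430A, and the passing probe sets of Cit, the citron kinase of late cytokinesis, had 0.63 and -0.06 on MOE430B.

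DNA replication genes, used in the preceding S phase, were also mostly lower on MOE430A. Of 33 measured, 27 were lower and 12 at least 1.5-fold (36.4%), with a median of -0.36. Mcm3, of the replicative helicase, had the lowest ratio of those with high signal, at 2376 and 958, and Pold2, a DNA polymerase subunit, the highest, at 2190 and 2613. On MOE430B 4 of 9 were lower, with a median of 0.38 that was -0.08 without the filter on low signals.

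For 3 lists of genes upstream of the mitotic programme, medians on MOE430A lay between -0.38 and -0.12. G1 cyclins and their kinases had 3 of 6 lower on MOE430A, with a median of -0.12, and Ccnd2, a D-type cyclin, read 4418 and 5957 (0.43). CDK inhibitors had 4 of 6 lower with a median of -0.14, Cdkn1b, the p27 inhibitor, at 1718 and 949 and Cdkn1a, the p21 inhibitor, at 1832 and 1836. The list of DREAM, Rb and E2F genes had 7 of 9 lower with a median of -0.38 on MOE430A and 5 of 10 lower with -0.07 on MOE430B. The core subunits of the anaphase-promoting complex, which are needed outside mitosis too, had 5 of 11 lower and a median of 0.002 on MOE430A, and 6 of 8 lower and a median of -0.24 on MOE430B.

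**Figure D5:**
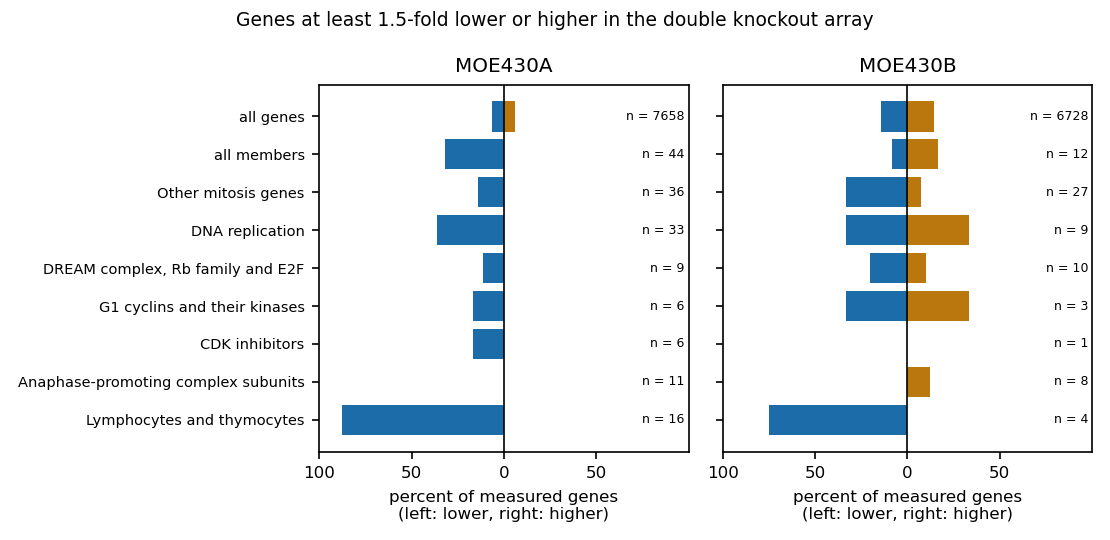
Percent of measured genes at least 1.5-fold lower (blue, left) or higher (orange, right) in the knockout-labelled array, for all genes, the members, 6 other cell cycle lists and lymphocyte markers, on MOE430A and MOE430B, with the number measured at the right. On MOE430A 31.8% of the members, 36.4% of replication genes and 87.5% of lymphocyte markers were lower by that much, against 6.32% of all genes.

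Markers of lymphocytes and thymocytes, cell populations that can divide rapidly, were lower on both designs, while the members were lower as a group on MOE430A only. On MOE430A 15 of 16 measured markers were lower and 14 at least 1.5-fold, with a median of -2.68. For 7 of the 16, 1 of the signals lay below the lower limit of measurement and was set to it. The summed signal of the 21 markers with a probe set was 41374 in the wild-type-labelled and 10082 in the knockout-labelled array. Below the lower limit of measurement lay 2 of the 21 in the former and 9 in the latter. On MOE430B 4 of 4 measured markers were lower, with a median of -0.67, where the members had -0.003. The summed signal of 5 markers there was 17382 and 8131. Their part in the lower values of the members was not tested. Erythroid markers, another dividing population of fetal blood, were lower for 3 of 3 measured genes, with a summed signal over 10 genes of 17784 and 12664 on MOE430A, and their part was not tested either.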

How the data were processed

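Messenger RNA of fetal lung was read on 4 arrays. Per the submitters' processing notes the authors used MAS5 (version and settings not given in the sources used here). The deposited values are linear intensities, 1 signal per probe set. MAS5 signals are noisy when dim, which widens ratios there.

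Controls (64 per design) were left out. The double knockout array was divided by 1.004 (MOE430A) or 1.008 (MOE430B), which set the median ratio of passing probe sets to 1. A probe set passed when its higher signal reached the design's median, 787.4 or 855.1, and signals below the 25th percentile, 283.8 or 278.1, were set to that floor. No member ratio rests on the floor. Pairs of signals are given as wild type, then double knockout after this division.

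Names came from GEO's platform annotation, and probe sets with several genes were left out. All 50 members matched the RefSeq gene table (GRCm38.p6). The members and lists were chosen with earlier results of these data known. Values are given for members at least 1.5-fold lower or higher, the lowest and highest of each role, members whose probe sets disagree, and further members to show a complex, and for up to 4 genes of other lists, those with high signal and the lowest or highest ratios. Cdkn1b, Spc24 and the genes named outside that rule were picked after their values were seen. 10 alternatives of scaling, floor, filter and probe set choice were run, and 1 was added later. The steps were tested on simulated arrays, with 2-fold changes planted in genes of high signal and less scatter than these data show. That does not test calls of dim genes or of ratios near 1.5-fold. The work used python 3.11.15.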

Additional observations from a re-analysis of the deposited data

How the results depend on the processing

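No paired analysis was possible because each genotype has 1 array on a design. The MOE430A median of the members stayed between -0.50 and -0.45 under all 11 alternatives. The count at least 1.5-fold lower on MOE430A was 8 of 30 without probe sets of the _x_at, _s_at and _a_at types, against 6.76% of all genes. There 23 were lower by any amount, against 49.0%. It was 23 of 64, against 7.19%, when every passing probe set was counted, an alternative chosen after seeing the data. The anaphase group's median was -0.36 with the median over probe sets, and Pttg1 turned to 0.36 with its dimmer probe set. On MOE430B the count at least 1.5-fold lower was 3 of 15 without a filter, against 15.2% of all genes. It was 0 with the dimmest probe sets and without the suffixed ones, where 2 of 9 were lower by any amount. In the setting used, 14.0% of all genes of MOE430B were at least 1.5-fold lower and 54.0% lower by any amount. There the replication median was 0.044 with loess, 0.125 with the floor at the median, -0.082 unfiltered, -0.071 when only signals from the 75th percentile up were kept, and 0.037 both with the median over probe sets and with every probe set counted. The cause of these shifts was not tested. Of the 14 members at least 1.5-fold lower, 9 stayed so under every alternative that measured them, and 13 stayed below 0, Pttg1 being the exception. Of the 9, only Prc1 and Tpx2 had several passing probe sets. For the others the alternatives of probe set choice kept the same probe set or left the gene unmeasured, so they tested little. Ratios of dim members, such as Bub1 (-0.37 with the floor at the median), are limited by signal over background.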

Other observations

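Other marker lists gave these values on MOE430A. Macrophage markers had a median log2 ratio of -0.14 over 7 measured genes, 6 of them lower, and erythroid markers -0.56 over 3, all lower. Endothelial markers had a median of 0.07 over 7, lung epithelial markers 0.52 over 13 and lung mesenchyme markers 0.40 over 9. Cardiac muscle markers, present in both arrays with a summed signal of 292775 in the wild-type-labelled and 330470 in the knockout-labelled array, had a median of 0.26 over 9 genes. None of the macrophage, endothelial or epithelial markers was at least 1.5-fold lower, while 1 mesenchyme marker (Col1a1) and 2 cardiac markers (Ryr2 and Nppa) were.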
